A study of Mus musculus with 20 samples.

Results

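In control mouse germline stem cells, 1236 genes gave RNA although the promoter window listed for them carried neither H3K4me3 nor H3K27me3. They were 1236 of 11234 expressed genes, and the table of windows lists 25965 genes. Members were chosen by measured values of the control libraries: H3K4me3 over the same-numbered input was under 1.5 in at least 1 of 2 control libraries and H3K27me3 over input was under 1 in at least 1 of them, both on the log2(RPM + 0.5) scale, where RPM is the reads of a window or gene scaled to the mapped reads of its library. Its RNA also had to average a log2 RPM of at least 2 in the 2 control RNA libraries. Of the 1236 members, 1089 stayed under both thresholds in both control libraries. Germline stem cells are the cultured counterpart of the stem cells that sustain sperm production, and these were grown on fibroblast feeder cells. The Kmt2b FC/FC cells came from Kmt2b F/F; Rosa26-CreERT2 cells that received 4-hydroxytamoxifen (4-OHT) at 1 µM, and were collected 6 days later. The Kmt2b F/F cells, also with Rosa26-CreERT2, received ethanol. Loss of the Kmt2b allele and exposure to 4-OHT therefore went together in every genotype comparison and cannot be told apart. H3K4me3, H3K27me3, input and RNA had 2 FC/FC and 2 F/F libraries each. H3K9me3 and its own inputs, made with another library kit, had 2 libraries each in F/F cells, whose treatment and day of harvest are not given in the labels. The series text speaks of duplicate cell lines, and whether replicate numbers mark those lines is not stated, so p-values measure the spread between libraries.

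H3K4me3 is a methyl mark on histone H3 that sits at the starts of active genes, above all where the promoter is rich in CpG dinucleotides, and KMT2B is one of the enzymes that writes it. H3K27me3 is the mark of Polycomb repression, and H3K9me3 that of heterochromatin. A processed pseudogene is a copy of a messenger RNA pasted back into the genome, so it usually brings no promoter of its own, and its sequence can stay close to that of the gene it came from. One gene can also have several transcription starts, and a window placed at one of them does not see a mark at another.

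The depth of the libraries limited what could be read from single windows. Mapped reads ran between 3830045 (H3K4me3, FC/FC replicate 1) and 63537169 (an input for H3K9me3), and 1 read was worth between 0.0157 and 0.261 RPM. The targeted gene, listed as Wbp7, an older symbol of Kmt2b, had 131 and 185 RPM of RNA in the FC/FC libraries, against 142 and 150 RPM in the F/F libraries. The groups overlapped. The value covers the whole gene and the deleted stretch is not given in the sources used here, so it does not check the deletion. RNA was tested in 14100 genes with limma, with 425 higher (3.01%) and 44 lower (0.312%) in FC/FC cells at an adjusted p under 0.05. H3K4me3 was called lower in FC/FC cells in 9.9% of 15624 windows and higher in 0.0512%.

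Sequences upstream of starts are shown for 6 members because they show how CG-rich the RefSeq starts near and far from the listed start are. Each line holds the 250 bases before a transcription start of RefSeq (GRCm38.p6, the assembly that mm10 represents), written in the direction of transcription with every CG in capitals. CG is its own reverse complement, so it counts the same on both strands. The ribosomal protein gene Rps2 (chr17:24719813-24720062, plus strand) has 29 CG in this stretch, and its start lies 1947 bases downstream of the start in the deposited table. Ctnnb1, which encodes the adhesion and Wnt signalling protein beta-catenin (chr9:120933150-120933399, plus strand), has 35, and that start lies 4184 bases downstream. Dnmt1, the maintenance DNA methyltransferase, is known to use different first exons in oocytes and somatic cells. RefSeq gives it 3 starts here, of which the first is the start in the deposited table and has 2 CG (chr9:20959889-20960138, minus strand), whereas the third lies 7265 bases downstream and has 26 (chr9:20952624-20952873, minus strand). Aldoa encodes the glycolytic enzyme aldolase A. Its first RefSeq start lies 304 bases from the listed one and has 0 CG (chr7:126800448-126800697, minus strand), and the second lies 1497 bases away and has 21 (chr7:126799255-126799504, minus strand). Sparc, a secreted matrix-binding glycoprotein, starts in RefSeq at the base listed and has 4 CG (chr11:55420081-55420330, minus strand). Col3a1, the chain of type III collagen, also starts at the base listed and has 0 (chr1:45311288-45311537, plus strand).
Rps2: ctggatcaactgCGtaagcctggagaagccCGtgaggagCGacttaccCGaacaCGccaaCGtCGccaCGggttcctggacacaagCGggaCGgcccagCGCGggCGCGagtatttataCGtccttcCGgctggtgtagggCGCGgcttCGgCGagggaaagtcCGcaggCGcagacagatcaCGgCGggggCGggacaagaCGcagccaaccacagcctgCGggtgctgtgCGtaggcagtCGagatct
Ctnnb1, start 1: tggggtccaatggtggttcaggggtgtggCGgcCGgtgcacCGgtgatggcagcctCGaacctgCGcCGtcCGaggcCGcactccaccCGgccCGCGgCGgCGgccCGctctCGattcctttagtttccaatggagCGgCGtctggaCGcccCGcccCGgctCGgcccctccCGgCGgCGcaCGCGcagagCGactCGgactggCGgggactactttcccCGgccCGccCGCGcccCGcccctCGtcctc
Dnmt1, start 1: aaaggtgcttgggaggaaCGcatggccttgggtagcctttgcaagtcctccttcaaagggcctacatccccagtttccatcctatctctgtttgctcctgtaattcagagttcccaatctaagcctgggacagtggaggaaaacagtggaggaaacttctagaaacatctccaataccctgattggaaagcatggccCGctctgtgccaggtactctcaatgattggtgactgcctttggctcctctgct
Dnmt1, start 3: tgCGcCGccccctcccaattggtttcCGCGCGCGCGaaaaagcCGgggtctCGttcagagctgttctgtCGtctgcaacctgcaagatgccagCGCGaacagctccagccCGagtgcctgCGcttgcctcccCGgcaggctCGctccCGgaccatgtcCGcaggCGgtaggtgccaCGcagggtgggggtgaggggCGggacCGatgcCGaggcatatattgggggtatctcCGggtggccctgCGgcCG
Aldoa, start 1: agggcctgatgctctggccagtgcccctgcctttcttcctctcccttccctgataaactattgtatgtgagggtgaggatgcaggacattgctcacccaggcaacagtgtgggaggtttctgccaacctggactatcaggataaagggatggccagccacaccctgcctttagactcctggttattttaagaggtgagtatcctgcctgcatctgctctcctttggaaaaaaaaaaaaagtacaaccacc
Aldoa, start 2: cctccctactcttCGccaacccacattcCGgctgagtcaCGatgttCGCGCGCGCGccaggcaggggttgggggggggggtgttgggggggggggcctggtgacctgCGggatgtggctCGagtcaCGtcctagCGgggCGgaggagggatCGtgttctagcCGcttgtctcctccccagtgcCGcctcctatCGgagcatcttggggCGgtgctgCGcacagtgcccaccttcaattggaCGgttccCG
Sparc: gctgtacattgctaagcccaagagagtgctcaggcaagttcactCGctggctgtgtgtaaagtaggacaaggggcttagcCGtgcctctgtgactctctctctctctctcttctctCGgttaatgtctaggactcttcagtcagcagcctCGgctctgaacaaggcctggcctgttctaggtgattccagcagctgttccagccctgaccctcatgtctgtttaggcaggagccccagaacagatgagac
Col3a1: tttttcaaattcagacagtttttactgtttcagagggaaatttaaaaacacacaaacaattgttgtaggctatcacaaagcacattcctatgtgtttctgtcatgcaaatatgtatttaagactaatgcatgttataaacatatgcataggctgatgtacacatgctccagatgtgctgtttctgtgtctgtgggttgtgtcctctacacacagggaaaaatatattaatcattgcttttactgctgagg

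The values that chose the members are given as a description. H3K4me3 over input had medians of -0.13 and -0.21 in F/F replicates 1 and 2 over the members, and of 4.14 and 4.25 over the other 9998 expressed genes. In RPM these windows had medians of 0.193 and 0.166 in the members and of 19.4 and 21.8 in the others. Of the other expressed genes, 9923 had H3K4me3 in both libraries and 75 had H3K27me3 alone. Among all expressed genes 89.0% had a window with either mark, and among all genes listed 59.6%. For H3K4me3 alone the shares were 88.3% and 57.5%. Just inside the H3K4me3 threshold stood Pik3ip1 and Cpt1b, both at 1.49, and just outside Dgcr6 and Grb7, both at 1.51. For H3K27me3, AC239678.1 at 0.986 and Rps6ka6 at 0.999 were inside, and AC147549.1 at 1.00 and 2210416O15Rik at 1.02 outside. For RNA, Fbxw13 and Gm20400 at a log2 RPM of 2.00 were inside, and Zfp319.1 and EU599041 at 1.99 outside. Control RNA had a median log2 RPM of 4.45 in the members and 4.98 in the others.

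The knockout libraries took no part in the rule and gave low windows again. H3K4me3 over input had medians of 0.02 and -0.10 in the members and of 3.89 and 4.28 in the others. A ratio of at least 1.5 in both FC/FC libraries was met by 13 members (1.05%) and by 9626 of the others (96.3%). Nanos3, an RNA-binding regulator of germ cell survival and the only member of the germ cell marker list, was one of them, with 2.05 and 2.44 in FC/FC and 2.60 and 1.03 in F/F libraries. Its H3K4me3 was under the threshold in 1 control library alone. Six4, a homeobox factor, was another, with 1.63 and 1.86 in FC/FC and 2.12 and 1.44 in F/F libraries.

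The reach of the window, which the sources used here do not state, was read from pairs of genes that start close together. Control H3K4me3 of such pairs correlated with r = 0.996 over 1135 pairs with starts under 250 bases apart, r = 0.83 over 398 pairs from 500 to 1000 bases apart, r = 0.47 over 214 pairs from 1000 to 1500 bases apart, and r = 0.188 over 170 pairs from 1500 to 2000 bases apart. These are correlations across gene pairs that share libraries and, when close, the same reads. A start was called displaced when it lay more than 1 kb from the listed one, and windows 1000 to 1500 bases apart still shared signal.

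Members were then sorted by what RefSeq lists at their place. Of 1236, 965 matched by symbol, 131 by a synonym and 68 by position with at least 50% overlap both ways, and 72 did not match. RefSeq pseudogenes made up 276 members (22.3%), against 107 of the others (1.07%). Coding genes with every listed RefSeq start beyond 1 kb made up 303 (24.5%), against 303 (3.03%) of the others. A further 128 members (10.4%), against 730 of the others (7.30%), had a start within 1 kb and another beyond it. In 290 members (23.5%) every RefSeq start lay within 1 kb, against 6902 (69.0%) of the others. Coding genes with no start in the RefSeq promoter table came to 144 (11.7%), against 1795 (18.0%), and non-coding RNAs to 23 (1.86%), against 121 (1.21%). The unmatched were 72 members (5.83%), against 40 (0.4%) of the others. These shares are descriptions, with no test. The members thus fell into several kinds, from copies and displaced starts to genes whose listed start RefSeq shares.

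**Figure D1:**
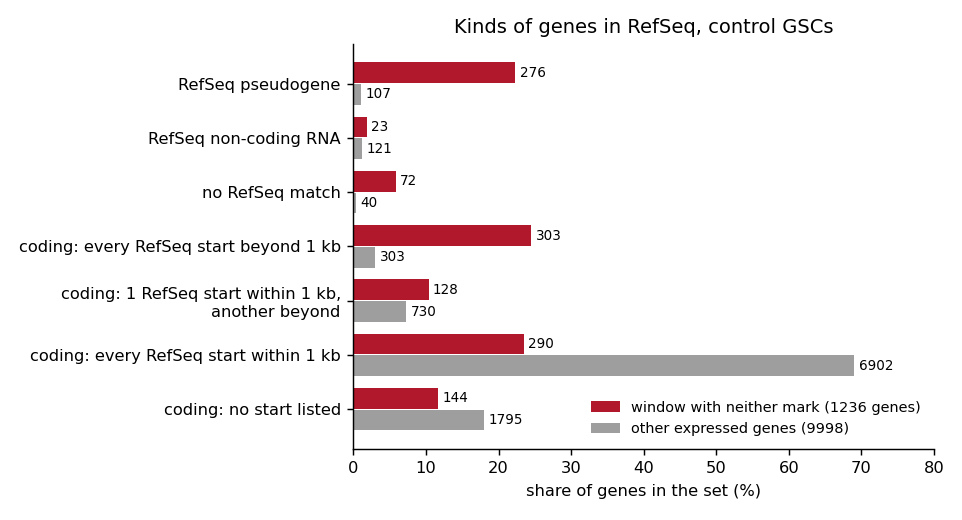
Share of members and of other expressed genes, in percent, by what RefSeq lists at the gene. Pseudogenes hold 22.3% of the members and 1.07% of the others, and coding genes with every start within 1 kb hold 23.5% and 69.0%.

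In 303 members every RefSeq start lay beyond 1 kb from the listed one. Their nearest start was 1020 to 487441 bases off, with a median of 6928, and it lay downstream in 221 and upstream in 82. For the 303 others of this kind the counts were 285 downstream and 18 upstream. In 132 members the nearest start was downstream and within 10 kb. Rps2 had H3K4me3 over input of 0.35 and -0.20 in FC/FC and -0.47 and -0.05 in F/F libraries, while its RNA stood at 1171 and 1043 RPM in FC/FC and 1190 and 1221 RPM in F/F libraries. The listed window was near input in all 4 libraries, and the RNA did not pass the test, although both FC/FC values were below both F/F values (limma adjusted p = 0.559). At Ctnnb1 the ratios were -0.14 and -0.31 in FC/FC and -0.24 and -0.21 in F/F libraries, and the RNA 363 and 438 RPM in FC/FC and 413 and 413 RPM in F/F libraries, with FC/FC values on both sides of the F/F ones. The RefSeq start lay 3458 bases downstream in H3f3b, which encodes a replication-independent histone H3, and 4414 bases in Eif4g1, a scaffold of translation initiation. It lay 7075 bases downstream in Prpf19, a splicing factor, and 4329 bases in Ldha, lactate dehydrogenase A.

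A window of another gene sometimes lay at the displaced start, and it mostly carried the mark, in members and others alike. For 55 coding members another listed gene started within 500 bases of a RefSeq start beyond 1 kb. That window carried H3K4me3 in both F/F libraries in 51 of the 55 (92.7%), against 73 of 83 (88.0%) among the others with such a window. Among all expressed genes 88.3% of windows carried the mark, and among all windows 57.5%. The shares of members and others are close, so nothing particular to the members is read from them. The members' own windows had medians of -0.22 and -0.24 in F/F replicates 1 and 2, and the windows at the displaced start 4.06 and 4.19. The own windows were low by the rule that chose the members, so the gap is a description. The exceptions were Zmynd8, Mical3.1, Luzp4 and Ott. For Ott the window there, listed as Gm15092, had ratios of 0.01 and -0.03 in F/F libraries. These equal the ratios of Ott's own window, which held no read, so the mark could not be read at either. Near Rps2 that window is listed under Snhg9, a small nucleolar RNA host gene whose listed start lies 1849 bases from that of Rps2. It had 4.24 and 5.08 in FC/FC and 4.86 and 4.58 in F/F libraries. For Rps10, another ribosomal protein gene with its start 1385 bases downstream, the own window gave 1.56 and 0.62 in F/F libraries and the window listed as Gm15420 gave 4.50 and 4.42. The same held for Cdca8, a subunit of the chromosomal passenger complex, with -0.82 and -0.01 in FC/FC and 0.04 and -0.24 in F/F libraries in its own window. The window of 9930104L06Rik at its RefSeq start gave 4.75 and 4.32 in FC/FC and 4.06 and 4.81 in F/F libraries. Atg4b, an autophagy protease, had -0.09 and -0.06 in F/F libraries at home and 5.06 and 5.49 in the window of Thap4, near the RefSeq start of Atg4b 3405 bases downstream. Hk1, hexokinase 1, had -0.93 and 0.45 in its own window and 4.98 and 4.66 in that of 2210417K05Rik, near a RefSeq start of Hk1 39487 bases downstream. The file also lists Srcap in parts, and the window of Srcap.2 gave -0.93 and -0.35 in F/F libraries where that of Srcap.1, at the RefSeq start 47403 bases upstream, gave 3.85 and 3.92. In a shared promoter the mark cannot be assigned to one of the neighbours.

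**Figure D2:**
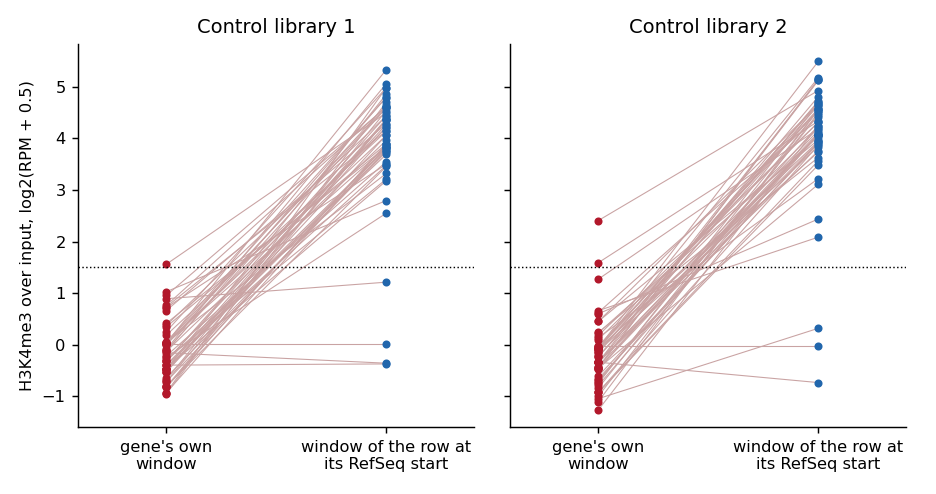
H3K4me3 over input on the log2(RPM + 0.5) scale in F/F replicates 1 and 2, for a member's own window (red, low by the rule) and the window of another listed gene within 500 bases of its displaced RefSeq start (blue). Lines join the windows of each of 55 members, and the dotted line is the threshold of 1.5. Of the windows at the displaced start 51 carried H3K4me3 in both libraries, against 73 of 83 among the other expressed genes with such a window.

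Promoter sequence, which the rule did not use, differed between the kinds, as a description with no test. The 300 bases around a RefSeq start (250 before and 50 after it) were counted for CG, and the ratio of observed to expected CG was read against 0.6. Over all 32851 RefSeq promoter windows the median was 7 CG, 94.6% held at least 1 CG and 35.8% reached 0.6. Members with every start within 1 kb had a median of 4 CG and 11.7% reached 0.6, against 23 CG and 84.8% in the others of that kind. Members with every start beyond 1 kb had 19 CG there and 62.0% reached 0.6, against 13 CG and 46.9% in the others. Where a member had both, the near start had a median of 4 CG, with 1.56% at 0.6, and the farthest start 17 CG, with 53.9%. In the others with both, the near start had 23 CG (77.5%) and the farthest 6 CG (27.7%). By these medians the CG-rich start was the far one in members and the near one in the others. Within 1 kb the low count held for the 205 members off chromosome X with well covered windows, with a median of 4 CG and 7.32% at 0.6.

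**Figure D3:**
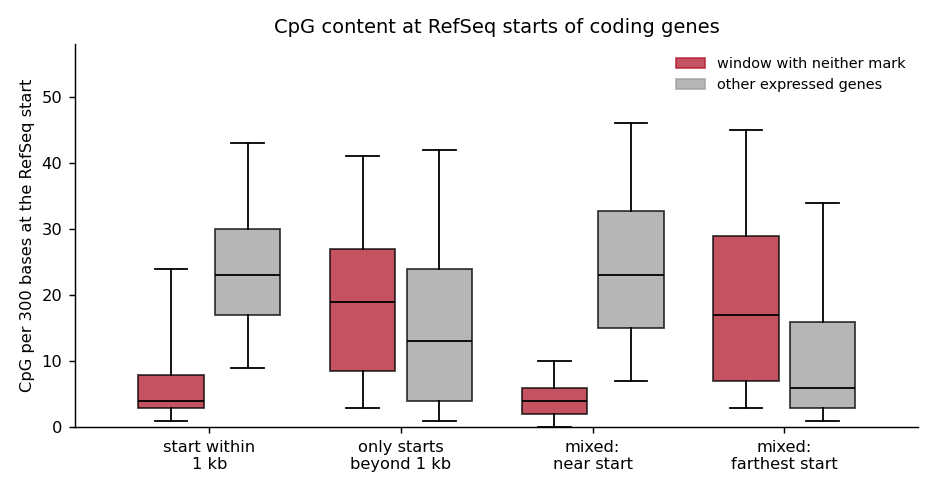
CG dinucleotides per 300 bases at RefSeq starts of coding genes, for members and other expressed genes; boxes span the quartiles, lines mark medians and whiskers reach the 5th and 95th percentiles. Members have a median of 4 at starts within 1 kb and 19 at starts beyond 1 kb, and the others 23 and 13.

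Sparc and Col3a1 belong to the members whose listed start RefSeq shares. Sparc (mm10 chr11:55394500-55420080, minus strand) had H3K4me3 over input of 0.97 and 2.38 in FC/FC and 1.29 and 1.61 in F/F libraries, so it was under the threshold in 1 control library. Its RNA was 42.9 and 41.2 RPM in FC/FC and 38.2 and 42.6 RPM in F/F libraries, and the groups overlapped (42.1 ± 1.16 and 40.4 ± 3.07 RPM, SD, n = 2 each). The log2 change of 0.06 (SE 0.10) did not pass limma (adjusted p = 0.803), and its sign turned with median centring. Col3a1 (chr1:45311538-45349706, plus strand) had ratios of 1.30 and 1.90 in FC/FC and 0.73 and 1.41 in F/F libraries. Its RNA was 38.6 and 58.2 RPM in FC/FC and 45.2 and 50.9 RPM in F/F libraries, with a log2 change of -0.02 (SE 0.19, limma adjusted p = 0.971). The FC/FC libraries stood on both sides of the F/F ones, and the sign turned when 1 library was left out. Both genes are on the list of 26 fibroblast feeder markers, of which 17 were expressed. With Col6a1 and Postn they were the only 4 members on it, and 11 of the expressed markers had H3K4me3. The summed RNA of that list was 663 and 830 RPM in FC/FC and 597 and 635 RPM in F/F libraries, and 5 of its genes averaged under a log2 RPM of 0 in F/F libraries. In bulk libraries, fewer cells of a type and less RNA per cell cannot be told apart. Whether their RNA came from feeder cells was not tested.

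Aldoa (chr7:126795234-126800751, minus strand) combined a CG-free start near the listed one with CG-rich starts beyond 1 kb. H3K4me3 over input was 1.5 and 0.90 in FC/FC and 0.82 and 0.43 in F/F libraries. Its RNA was lower in both FC/FC libraries, at 214 and 213 RPM, against 284 and 340 RPM in the F/F libraries (213 ± 0.711 and 312 ± 39.4 RPM, SD, n = 2 each). The log2 change was -0.54 (SE 0.11, limma adjusted p = 0.0496). The call was lost with quantile normalisation, with no filter, with limma voom and without either F/F library. Of the glycolysis list, 17 of 18 genes were in the table and all 17 expressed. Aldoa, Hk1 and Ldha were members and the other 14 had H3K4me3. Ldha, with 40.9 and 45 RPM in FC/FC and 55.6 and 70.3 RPM in F/F libraries, did not pass (limma adjusted p = 0.0788), although the groups did not overlap.

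Many RefSeq pseudogenes were listed with RNA. The first by RPM, a scale not divided by length, was Gm8841, which RefSeq calls Rps2-ps10, a copy of Rps2 that lies inside Pde6a on the opposite strand. It had 1696 and 1515 RPM in FC/FC and 1746 and 1765 RPM in F/F libraries. The source gene is itself a member, and both changed by -0.13 on the log2 scale. Rpsa-ps10 had 1505 and 1321 RPM in FC/FC and 1422 and 1455 RPM in F/F libraries, and its source Rpsa, a protein of the small ribosomal subunit, had 719 and 616 RPM in FC/FC and 659 and 686 RPM in F/F libraries. A source gene with RNA values could be named for 81 members, from the name in the table for 46 and from the RefSeq symbol for 35. Of the 81, 52 were copies of ribosomal protein genes, and 9 of these 52 were copies of Rpl21. These 81 copies traced to 53 source genes, 50 of them with H3K4me3. The exceptions were Rps2, 3200002M19Rik and Rbpj. The nearest RefSeq start lay 1947 bases downstream of the listed one in Rps2 and 34567 bases downstream in Rbpj. The listed windows of these genes therefore do not measure the mark at their RefSeq starts.

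The RNA change of a copy lay close to that of its source. In 76 of 81 pairs they differed by at most 0.1 on the log2 scale, with a median difference of -0.03, and across the 81 pairs r was 0.834. Many source changes were themselves small, such as -0.036 in Rpl21 and 0.006 in Rpl7a. The share of unrelated pairs within 0.1 was not counted, so the 76 alone do not tie a copy to its own source. Several copies share 1 source, and copies and sources share libraries, so the pairs are not independent. Apoo-ps changed by -0.45 and Apoo by -0.47, Pcna-ps2 by -0.38 and Pcna by -0.32, and Brp44l-ps by 0.30 and Brp44l by 0.27, and none of these 6 passed the test. The largest gap, 0.401, was that of Rbpsuh-rs3 (-0.42) and Rbpj (-0.02). Rbpsuh-rs3 had 5.99 and 17.7 RPM in FC/FC and 12.8 and 14.9 RPM in F/F libraries. Its FC/FC values thus lay on both sides of the F/F ones. How reads that fit several places were counted is not given in the sources used here, so the RNA of every copy is uncertain and may hold reads of the source.

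A set of 13 pseudogene members shared 1 interval length, 1002 bases, on 8 chromosomes. Their RNA changes lay between -0.28 and -0.24 on the log2 scale, with control levels between 5.36 and 8.92 log2 RPM. One of them, Gm3272, is Gapdh-ps16 in RefSeq, a copy of the glycolytic enzyme gene Gapdh. Gm3272 had 241 and 243 RPM in FC/FC and 286 and 292 RPM in F/F libraries, and Gapdh 370 and 376 RPM in FC/FC and 434 and 451 RPM in F/F libraries. Both were lower in each FC/FC library than in each F/F library, and neither passed limma (adjusted p = 0.171 and 0.188). Gapdh had H3K4me3 over input of 2.63 and 3.27 in FC/FC and 3.58 and 3.99 in F/F libraries, and Gm3272 had -0.45 and -0.31 in FC/FC and -0.01 and -0.11 in F/F libraries.

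**Figure D4:**
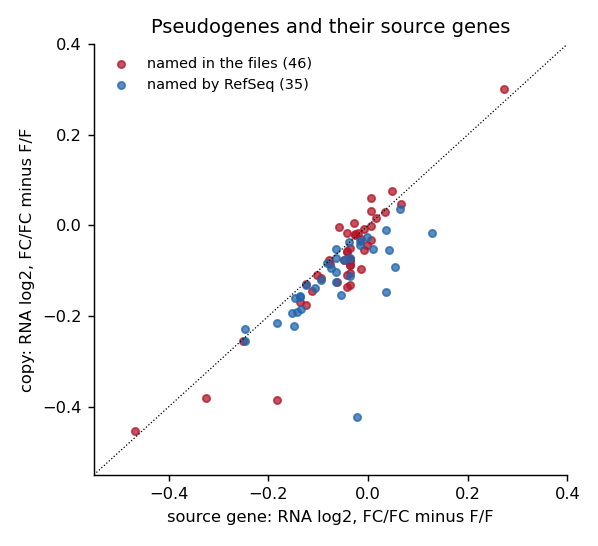
RNA log2 change (FC/FC over F/F) of 81 copies plotted against that of the named source gene, with a dotted line of equal change; red copies are named in the deposited table (46) and blue ones by the RefSeq symbol (35). In 76 of 81 pairs the changes differ by at most 0.1, and the share among unrelated pairs was not counted.

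Some windows could not be read at all. In 80 members (6.47%) no read fell in any of the 16 chromatin libraries, which happened in 0 of the others. A window with no read has ratios near input, so the rule makes every such expressed gene a member and fixed that 0. In 207 members (16.7%), against 47 of the others (0.47%), the 2 deep inputs made for H3K9me3 together held under 12 reads, which is 0.25 times the median of 48 in the others. Windows with few reads seldom reach the thresholds, so these shares are also partly set by the choice. Nothing is read from either comparison. In the 80 windows with no read the absence of a mark cannot be read, and in the others with poor input the ratio rests on few input reads. Chromosome X held 90 members (7.28%, against 3.30% of the others), of which 55 had such poor windows. A stretch of chromosome X between 147992993 and 149984982 held 11 members with 6.94 to 7.55 log2 RPM of control RNA, changes of -0.05 to 0.03 and at most 8 deep input reads each. Ott, in this stretch, had 0 window reads and 170 and 211 RPM of RNA in FC/FC and 196 and 180 RPM in F/F libraries. Chromosome Y held 9 members (0.728%, against 0.08%), 5 of them with no window read and none with over 14. Rbmy1a1, which encodes a germ cell RNA-binding protein and belongs to a multicopy family, had 877 and 968 RPM in FC/FC and 1093 and 1010 RPM in F/F libraries. The histone genes Hist1h2ao, Hist1h2ap and Hist1h2br, whose family members are near identical, also had no window read.

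Few members lay inside another gene. The whole interval of 86 members (6.96%), against 156 of the others (1.56%), was inside another listed gene, on the opposite strand in 82 and on the same strand in 4. The share for the opposite strand was 6.63% in the members and 1.5% in the others, and 36 of those 82 members were pseudogenes. On the same strand, Cntf, a neurotrophic cytokine, lay inside Zfp91, Trex1, a DNA exonuclease, inside Atrip, and Cpt1b, a mitochondrial carnitine acyltransferase, inside Chkb. Cntf had 86.3 and 94.8 RPM in FC/FC and 104 and 104 RPM in F/F libraries, and its ratios were -0.45 and -0.64 in FC/FC and 0.42 and -0.92 in F/F libraries. On the opposite strand lay Gm8841, Rps12-ps3 inside Pdzd8 and Gm15887 inside Nipa1. The kit kept the strand of RNA but the setting used in counting is not given in the sources used here, so RNA of nested and antisense genes is uncertain. A start of another gene with H3K4me3 stood inside the interval of 96 members (7.77%), against 10.6% of the others. Such a start stood within 5 kb of 91 members (7.36%), against 27.5%, and within 2 kb of 2.02%, against 24.3%. Windows of close starts share reads, and members were chosen for windows without the mark. The shares by distance are therefore partly set by the choice, and nothing is read from them. Intervals under 2 kb made up 25% of the members and 2.84% of the others.

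In the genotype comparison of RNA, 34 members were called higher (2.75%) and 8 lower (0.647%) in FC/FC cells, beside 3.01% and 0.312% of all 14100 genes tested. Since control libraries also chose the members, nothing is read from these counts, and the changes of single members share those libraries with the choice. With each library centred on its median the members split into 24 higher and 22 lower, and all genes into 266 and 114. FC/FC and F/F libraries did not overlap in 50.8% of the members and 52.2% of all genes tested. By kind, 11 members with displaced starts, 7 with mixed starts, 9 with every start within 1 kb and 7 with no start listed were higher. Lower were 1, 1, 5 and 1 members of the same kinds. Of the 276 pseudogenes limma called 0, and 2 were higher and 34 lower at an unadjusted p under 0.05 (13.04%, beside 20.1% of all genes tested). Limma voom on recovered reads also called 0, with 2 higher and 33 lower. The share of all genes is not split by direction. Copies of 1 source may hold the same reads, so the pseudogenes are not independent and nothing is read from their split. The median change of the pseudogenes was -0.08, with quartiles of -0.19 and -0.02, against quartiles of -0.07 and 0.18 in the other expressed genes.

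Odz4 (Tenm4 in RefSeq), a teneurin membrane protein, had 9.33 and 11.6 RPM in FC/FC and 4.50 and 4.24 RPM in F/F libraries, with a log2 change of 1.25 (SE 0.15, limma adjusted p = 0.0204). Igf2, an imprinted growth factor, had 12.9 and 15.4 RPM in FC/FC and 7.15 and 5.16 RPM in F/F libraries, a change of 1.22 (SE 0.18, limma adjusted p = 0.0263), a call lost with quantile normalisation. Both have a RefSeq start at the listed base and another downstream, 40427 bases away in Odz4 and 9320 in Igf2. Mgst2, a microsomal glutathione transferase, had 14.5 and 17.2 RPM in FC/FC and 7.80 and 7.28 RPM in F/F libraries. Ifitm3, an interferon-induced membrane protein, had 16.4 and 13.4 RPM in FC/FC and 7.02 and 7.28 RPM in F/F libraries. The change was 1.07 in Mgst2 and 1.05 in Ifitm3, whose call was lost with quantile normalisation. Ccdc8, whose start lies 1194 bases downstream, had 8.06 and 12 RPM in FC/FC and 4.50 and 5.25 RPM in F/F libraries (limma adjusted p = 0.0471), a call lost with quantile normalisation, no filter or limma voom. In all 5 genes both FC/FC libraries stood above both F/F libraries. Col6a3, a chain of type VI collagen, also rose (14.4 and 21.3 RPM in FC/FC, 8.32 and 9.29 RPM in F/F libraries, limma adjusted p = 0.0430). It was the only called gene among the 7 members on the matrix gene list, and the summed feeder markers given above were higher in the FC/FC libraries too. The part of that in its change was not tested.

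Stra8, a retinoic acid target needed for entry into meiosis, was among the members that fell. It had 75.9 and 78.9 RPM in FC/FC and 141 and 122 RPM in F/F libraries (77.4 ± 2.12 and 132 ± 13.6 RPM, SD, n = 2 each). The log2 change was -0.76 (SE 0.11, limma adjusted p = 0.0230), and the call was lost without F/F replicate 1. Its RefSeq start lies 785 bases downstream of the listed one, and H3K4me3 over input was 1.5 and 0.69 in FC/FC and 0.39 and 0.66 in F/F libraries. Clec2g, a C-type lectin-like gene, had 3.54 and 4.27 RPM in FC/FC and 7.80 and 9.85 RPM in F/F libraries, a change of -1.17 (SE 0.17, limma adjusted p = 0.0255). Nlrp9c, of the NLR family, had 6.55 and 10.04 RPM in FC/FC and 16 and 17.9 RPM in F/F libraries, a call lost with quantile normalisation or no filter. Gm5934 had 5.46 and 5.55 RPM in FC/FC and 10.9 and 10.8 RPM in F/F libraries, and Gm5072 had 2.91 and 3.97 RPM in FC/FC and 6.14 and 7.32 RPM in F/F libraries. In all 5 genes both FC/FC libraries stood below both F/F libraries. Gm5072 had 1 window read in all 16 chromatin libraries, so its window cannot be read, and its call was lost with quantile normalisation, no filter or without F/F replicate 2.

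**Figure D5:**
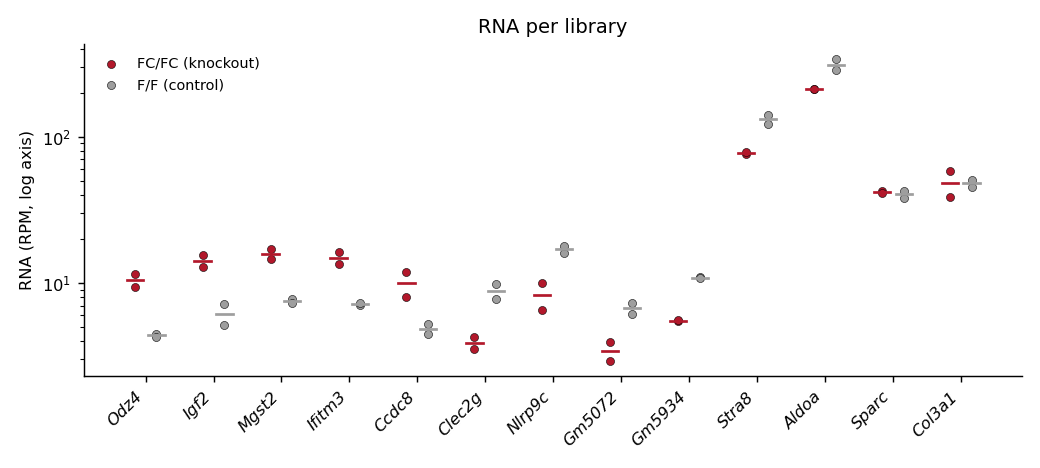
RNA of named members in each library, in RPM on a log axis, with 2 FC/FC libraries (red) and 2 F/F libraries (grey) per gene and bars at the group means. In Odz4 and Igf2 both FC/FC libraries stand above both F/F libraries, and in Stra8 and Clec2g below them.

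Of the members, 124 reached the mean of 1 RPM needed for the test of H3K4me3 between genotypes. The F/F values of that test are those that chose the members, so the calls are given as a description and no p is printed. Cpeb4, a cytoplasmic polyadenylation factor, was higher, with 3.92 and 1.99 RPM in FC/FC and 0.290 and 1.33 RPM in F/F libraries, a log2 difference of 2.17 (SE 0.77). Lower by limma were Cntnap5b (-2.68), Gm10094 (-2.27) and Mprip (-2.15). The background was 0.0512% higher and 9.9% lower, and nothing is read from the members' count. These are small read numbers: in the shallow FC/FC replicate 1, Cntnap5b, Gm10094 and Mprip had 0.261 RPM each, which is 1 read. All 4 calls were lost without either F/F library, and those of Cpeb4, Gm10094 and Mprip also without FC/FC replicate 1 or with median centring. Quantile normalisation lost those of Cntnap5b (-1.11), Gm10094 (-0.63) and Mprip (-0.41). For H3K27me3, 69 members passed the filter and limma called 0, beside 0.791% higher and 0% lower over 4807 windows. At an unadjusted p under 0.05, 2 were higher and 0 lower (2.90%, beside 12.2% of all windows tested), and limma voom also called 0. The F/F values of H3K27me3 also chose the members, and few members passed the filter. These counts are therefore a description, and nothing is read from the gap between the shares.

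H3K9me3 in F/F cells took no part in the rule. Over all members it had medians of 0.0973 and 0.079 RPM, against 0.331 and 0.355 RPM in its own inputs, and over the other expressed genes 0.0487 and 0.0592 RPM, against 0.441 and 0.449 RPM. In the pseudogenes the medians were 0.0973 and 0.079 RPM, against 0.205 and 0.213 RPM in the inputs. Against its inputs limma called 8.02% of 15233 windows higher and 78% lower. The median window lay at -2.46 on the log2 scale, and the lower calls are to be read against that. Of 556 members that averaged 0.25 RPM or more, 63 were higher and 392 lower (11.3% and 70.5%). Among 5799 such others 18 were higher and 5606 lower (0.31% and 96.7%). The filter averaged H3K9me3 and its inputs, so members without high input passed more readily where H3K9me3 was high. The counts therefore describe the windows that passed and not all members, and nothing is read from the gap to the others. With no filter, 83 of 1236 members were higher and 739 lower, beside 1494 and 19968 of all 25965 windows. With median centring the split of the members was 133 higher and 4 lower, and that of all windows 2715 and 371. Of the 276 pseudogenes, whose median input lay under that filter, 53 were tested and 23 called higher, and no comparison with the other kinds is made.

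Clec2g was called higher, with 1.58 and 1.52 RPM of H3K9me3, against 0.252 and 0.0946 RPM of input (log2 change 3.33, SE 0.49). Its inputs held 16 and 4 reads, so it passed the filter through H3K9me3 and no p is printed. On the log2(value + 0.5) scale the change was 1.62. Zfp936, a zinc finger gene, Gm884, Neto2, an auxiliary subunit of kainate receptors, and Zcwpw2 were also called higher, with log2 changes between 2.80 and 3.15, or between 1.73 and 2.05 on the log2(value + 0.5) scale. The filter averaged H3K9me3 and input, so high H3K9me3 helped these windows to pass as well. Their calls are a description too. Zcwpw2 had 2.60 and 1.86 RPM of H3K9me3, against 0.299 and 0.331 RPM of input, and its displaced start lies at the window of Azi2, whose H3K4me3 ratio was 4.36 and 4.50 in F/F libraries. Igf2 had 1.09 and 1.84 RPM of H3K9me3, against 0.472 and 0.662 RPM of input (1.34, SE 0.38, limma adjusted p = 0.0114). Called lower were Tenc1 (-4.91), Osbpl7 (-4.57), Sparc (-4.38), Mknk2 (-4.35) and Prx (-4.13), and Prx lost its call with median centring. On the log2(value + 0.5) scale these 5 changes lay between -1.15 and -0.97. Sparc had 1 and 2 reads of H3K9me3, against 40 and 28 reads in the inputs.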

How the data were processed

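Chromatin was measured in 16 libraries and RNA in 4. The authors deposited log2 RPM, for chromatin 1 window per gene and for RNA 1 value per gene not divided by length. Both use mm10, and the submitters' processing notes name Bowtie 1.1.1, TopHat2 2.0.14, Trim Galore 0.4.0 and CASAVA 1.8, without their roles. Window size, window place, treatment of reads that map to several places and the strand setting are not given in the sources used here. Within each library 100.0% of values were whole reads of a fixed step within 0.1, and windows or genes with no read were listed at 0.9 of a step. Deposited log2 values were tested with limma 3.58.1 (R 4.3.3) with a mean-variance trend, two-sided, adjusted by Benjamini-Hochberg over every feature tested, with calls at an adjusted p under 0.05. Features tested had a mean log2 RPM of at least 0 (RNA), a mean of at least 1 RPM (H3K4me3, H3K27me3) or of at least 0.25 RPM (H3K9me3). H3K9me3 was tested against its own inputs in F/F cells. The tests were run on simulated data with a fixed spread, not estimated from these libraries, which does not give their error rates here. A count model had been foreseen and was not used as the unit was log2. RefSeq genes (GRCm38.p6) were matched by symbol, synonym or at least 50% reciprocal overlap, in Python 3.11.15. Genes named were Aldoa, Sparc and Col3a1, the 10 members with the most control RNA, the 3 with the most in each kind and list, the called genes with the largest changes (5 each way) and the neighbours of each threshold. Genes that illustrate displaced starts, the windows there, copies and knockout ratios were chosen after their values were seen. Members and lists were chosen with earlier results of these data known. The lists of ribosomal protein genes, actin cytoskeleton genes, Sertoli and Leydig markers and blood markers held 3, 0, 0 and 0 members. Proteins were not compared. Alternatives were other normalisations and filters, log2(value + 0.5), limma voom on recovered reads, a replicate block, each library left out and other thresholds.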

Additional observations from a re-analysis of the deposited data

How the results depend on the processing

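The set held 696 genes with an RNA threshold of 4, and 1158 to 1159 when chosen without a control library, against 1236. Members with a marked start of another gene nearby numbered 91 within 5 kb, 25 within 2 kb and 170 within 10 kb. Members inside another gene numbered 86, and 366 overlapped one at all. Members reaching the H3K4me3 threshold in FC/FC libraries numbered 13, 29 at a threshold of 1, 2 with a pseudocount of 1 and 25 to 41 from a single FC/FC library. Members called in RNA numbered 42, 7 with quantile normalisation, 24 with no filter, 157 with the replicate block and 21 to 715 with a library left out. With FC/FC replicate 1 left out there were 715, without FC/FC replicate 2 604, and without F/F replicate 1 21. The lone library was then assumed to vary like the other group. Members called in H3K4me3 numbered 4, 2 with median centring (which adds 0.29 to every log2 change), 22 with quantile normalisation, 10 with no filter, 8 with log2(value + 0.5), 18 with limma voom, 11 with the replicate block and 0 to 49 with a library left out (49 without FC/FC replicate 2, 0 without either F/F library). For H3K27me3, where median centring takes 0.58 off, the count was 0 in all but the replicate block, which gave 2. Members called in H3K9me3 over input numbered 455, 137 with median centring (which adds 2.25), 822 with no filter and 340 to 482 with a library left out. The RNA change of Sparc turned to -0.038 with median centring and to -0.018 without F/F replicate 1, against 0.14 without F/F replicate 2. That of Col3a1 turned to 0.28 without FC/FC replicate 1 and to 0.07 without F/F replicate 2, and was called at -0.32 without FC/FC replicate 2. Over 13 genes named for RNA, 109 of 130 alternative values kept direction and side of the threshold, over 4 named for H3K4me3 23 of 40, and over 10 named for H3K9me3 69 of 70. Apart from the counts given, the cause of these moves was not tested. The labels do not say that numbers pair libraries, whose deviations correlated by number with r of 0.091 (RNA), 0.149 (H3K4me3) and 0.062 (H3K27me3), so the pairing stands as an alternative. A search for near-identical proteins was not run. At 1 read per 0.0157 to 0.261 RPM, single low windows carry few reads, and a window with no read says nothing of the mark.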
